A study of Mus musculus with 6 samples.

Results

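Integrins are adhesion receptors of the cell surface, each made of 1 alpha chain and 1 beta chain that must pair before they reach the membrane. The chains described here are 10 integrin genes of osteoclast precursors, chosen by symbol: the beta chains *Itgb1*, *Itgb2*, *Itgb3*, *Itgb5* and *Itgb7*, and the alpha chains *Itgav*, *Itga4*, *Itgal*, *Itgam* and *Itgax*. All 10 of 10 were found among the 24346 gene symbols of the deposited tables, and all passed a filter of at least 1 FPKM (the number of fragments, scaled to gene length and to the size of the library) in at least 1 mouse, which kept 11301 genes. The alphaV chain pairs with beta3, beta5 and beta1 and binds matrix proteins with the RGD motif; alphaV beta3 is the main integrin by which mature osteoclasts seal themselves to bone. The alphaL, alphaM and alphaX chains all pair with beta2, the integrin chain of leukocytes, and bind ICAM proteins, complement fragments or fibrinogen. The alpha4 chain pairs with beta1, giving the receptor for VCAM-1 and fibronectin, or with beta7, giving the receptor for MAdCAM-1.

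RNA-Seq was performed on EGFP+ cells sorted from the crushed calvaria of CX3CR1-EGFP knock-in mice, in which the *Cx3cr1* locus drives a green reporter in monocytes and their progeny. Inflammation was induced in all 6 mice with lipopolysaccharide (LPS) at 20 mg/kg, injected at the periosteum of the calvaria. The JAK1-selective inhibitor ABT-317 was given orally to 3 mice at 60 mg/kg, in 2 doses per day over 5 days, and the other 3 had vehicle. Both groups thus carried the reporter and had LPS, mice without LPS were not analysed here, and the age of the mice and the zygosity of the reporter are not given in the sources used here. The comparison addressed how JAK inhibition bears on the migration of osteoclast precursors to bone.

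In each mouse, 10361 to 10439 genes reached 1 FPKM and 10389 to 10619 were listed at 0. Read depth is unknown, so no counting error can be given. Monocyte genes were high in every mouse, with *Csf1r* (the receptor of M-CSF) at 355 to 422 FPKM and *Ccr2* at 156 to 200. Genes of granulocyte progenitors and basophils were high as well, with *Mpo* at 1650 to 6106 FPKM and *Mcpt8* at 463 to 1130, so the sorted cells were not monocytes alone. Vehicle-treated mouse 3 stood apart: it had the lowest vehicle value of 7 chains and the highest of the other 3. It was thus an extreme for all 10, against 75.6% of all tested genes. Vehicle-treated mice 1 and 2 were extremes for 6 and 4 of the 10 chains, and for 60.8% and 64.6% of tested genes. *Cx3cr1* itself was at 15.5 FPKM in vehicle-treated mouse 3 and at 29.5 to 36.1 in the other 5 mice. Where leaving that mouse out turned the sign of a fold change or ratio given here, changed its call, or moved it by over 1.5 times, the value without it is given as well. In a sorted population, more transcript per cell and more cells of one kind cannot be told apart.

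The 10 chains spanned a wide range of levels, and their order was largely shared by the groups. FPKM is scaled by length, so levels were set side by side between genes, but other biases of single genes are not removed by it. In vehicle-treated mice *Itgb2* was highest at 391 ± 42.3 FPKM (SD, n = 3), followed by *Itgb7* at 145 ± 44.5 (SD, n = 3). Then came *Itgam* at 99.3, *Itgb1* at 96.0, *Itgal* at 50.5, *Itgb5* at 34.5, *Itga4* at 10.996, *Itgax* at 4.83, *Itgav* at 4.63 and *Itgb3* at 2.71 FPKM. The chains of the vitronectin receptor, alphaV beta3, were therefore the least abundant of the set with *Itgax*, and the leukocyte chain beta2 the most abundant. The ranges of the vehicle-treated mice overlapped between *Itgb7* and *Itgam*, *Itgam* and *Itgb1*, *Itgal* and *Itgb5*, and *Itgax* and *Itgav*, and these neighbours are not ordered beyond their spread. In JAK inhibitor-treated mice the 2 pairs of neighbours whose ranges overlapped were *Itgal* with *Itgam* and *Itgav* with *Itgb3*. *Itgal* stood above *Itgam* in 3 of 3 JAK inhibitor-treated mice, whereas its vehicle values of 36.2 to 59.98 FPKM all lay below those of *Itgam*, at 84.1 to 122. *Itgb3* moved from the lowest place to one above *Itgax*.

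**Figure D1:**
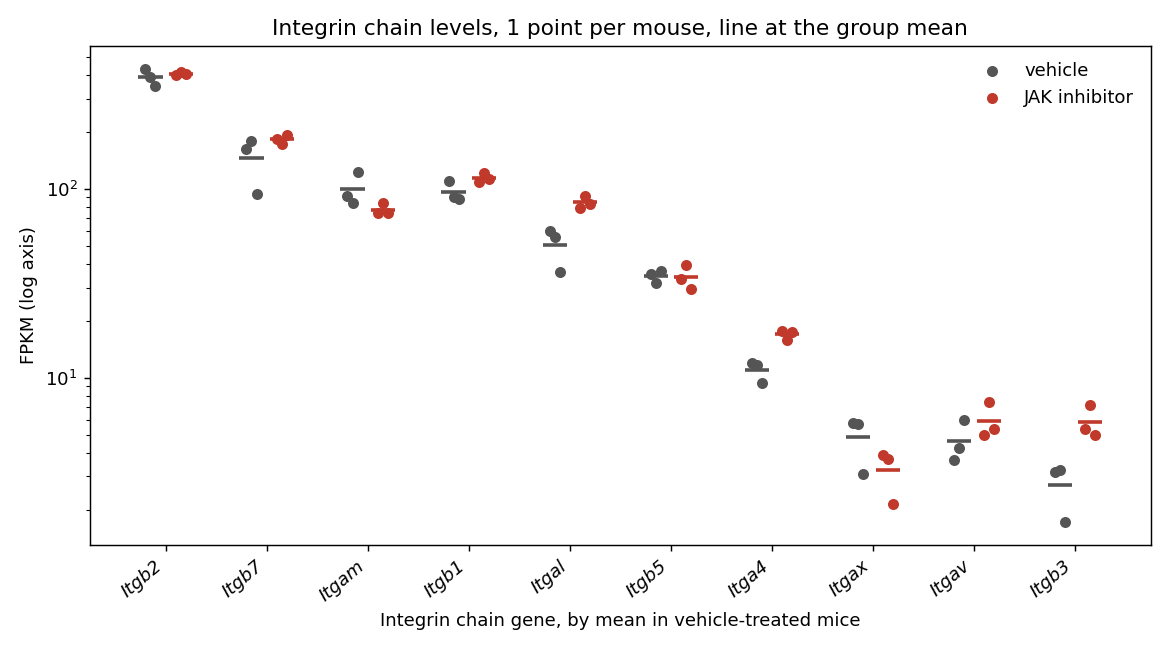
FPKM of the 10 integrin chains on a log axis, with 1 point per mouse (grey, 3 vehicle-treated; red, 3 JAK inhibitor-treated) and a line at each group mean. The groups do not overlap for *Itgb3*, *Itgal* and *Itga4*, and *Itgb2* is at 348 to 432 FPKM in all 6 mice.

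Between the groups, 4 chains were higher and 1 was lower with JAK inhibitor at an unadjusted p under 0.05 in limma on log2(FPKM + 1): *Itgb3*, *Itgal*, *Itga4* and *Itgb1* on the higher side and *Itgam* on the lower side. Among all tested genes this threshold called 16%, with 6.57% higher and 9.4% lower. No chain (0 of 10) passed an adjusted p under 0.05 in limma (Benjamini-Hochberg over all tested genes), which called 15 genes or 0.133%. For 3 of the 10 chains every JAK inhibitor-treated mouse lay above every vehicle-treated mouse, against 9.92% of tested genes, and for 0 of 10 every one lay below, against 12.1% (22% in either direction). The median log2 fold change of the 10 chains was 0.27, and that of all tested genes rounded to 0. Without vehicle-treated mouse 3 the median of the 10 chains was 0.15. In that fit 4 chains were higher and 1 lower at an unadjusted p under 0.05 in limma. Of its 11130 tested genes, 13.5% were past this threshold in either direction. The called chains were partly other ones: *Itgb1* and *Itgam* lost their calls, and *Itgav* (higher) and *Itgax* (lower) gained them. The beta2 and beta5 chains differed least. Among the alpha partners of beta2, *Itgal* had a log2 fold change of 0.77, whereas *Itgam* had -0.34 and *Itgax* -0.45. The alpha chains *Itgav* (0.30) and *Itga4* (0.59), which both pair with beta1, differed in the same direction. For *Itgax* and *Itgav* the interval from limma held 0.

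**Figure D2:**
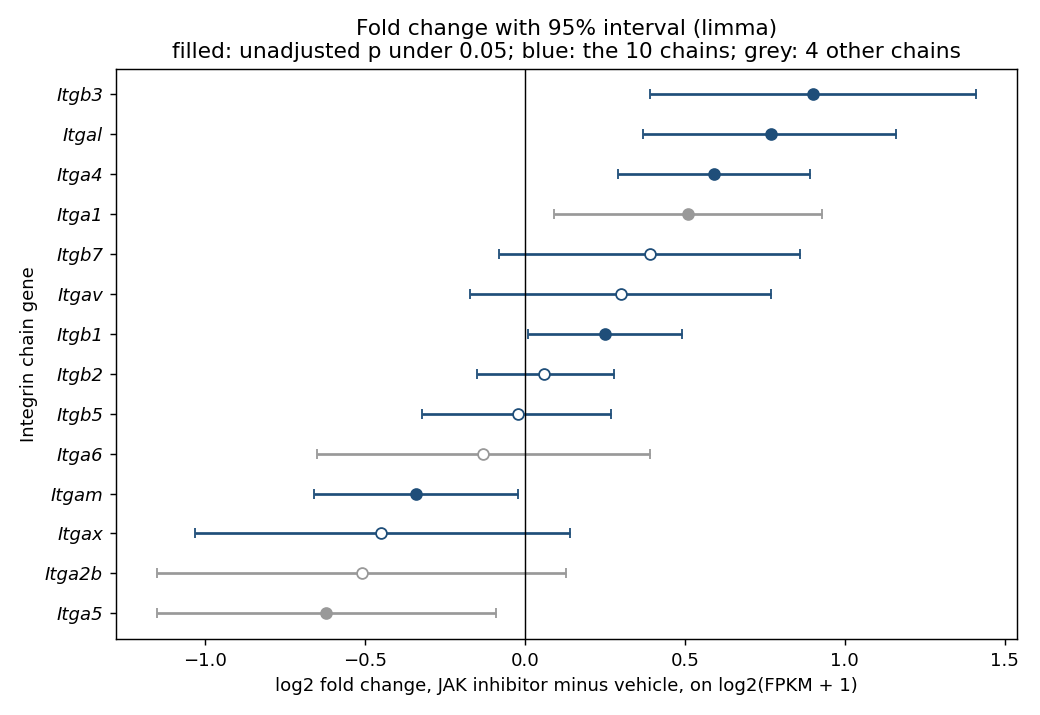
Log2 fold change (JAK inhibitor minus vehicle, on log2(FPKM + 1)) with its 95% interval from limma, for the 10 chains (blue) and the 4 other integrin chains that passed the filter (grey); filled points have an unadjusted p under 0.05. *Itgb3* is at 0.90, *Itgal* at 0.77 and *Itga4* at 0.59, while *Itgam* is at -0.34 and *Itga5* at -0.62.

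*Itgb3* encodes beta3, which pairs with alphaV in osteoclasts and macrophages and with alphaIIb in platelets. It lies on chromosome 11 from 104608000 to 104670476 on the plus strand (GENCODE M21 on GRCm38, the assembly of the mm10 build named in the submitters' processing notes). With vehicle it was at 3.16, 3.24 and 1.72 FPKM, and with JAK inhibitor at 5.37, 7.20 and 4.99. All JAK inhibitor-treated mice lay above all vehicle-treated mice, and the lowest value was that of vehicle-treated mouse 3. The means differed 2.16-fold, the log2 fold change was 0.90 with a 95% interval from 0.39 to 1.41, and the adjusted p in limma was 0.123. The exact permutation p (2-sided) was 0.1, below which 3 mice per group cannot go. Without vehicle-treated mouse 3 the log2 fold change was 0.69.

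The partner of beta3, alphaV, had a smaller difference. *Itgav* (chromosome 2, 83724397 to 83806916, plus strand) was at 3.67, 4.24 and 5.96 FPKM with vehicle and at 4.96, 7.39 and 5.33 with JAK inhibitor. The groups overlapped, with a log2 fold change of 0.30 and a 95% interval from -0.17 to 0.77 (adjusted p = 0.522 in limma). Without vehicle-treated mouse 3 it was 0.46, with an unadjusted p in limma of 0.0479. In the same mice, *Itgb5*, another of the beta chains that pair with alphaV, was at 35.3, 31.5 and 36.8 FPKM with vehicle and at 33.5, 39.6 and 29.3 with JAK inhibitor. Its log2 fold change was -0.02 with a 95% interval from -0.32 to 0.27, and it was 0.02 without vehicle-treated mouse 3. *Itgb5* was thus several times as abundant as *Itgb3* in every mouse.

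The levels of the chains can be compared within each mouse, which removes differences in scaling between libraries. Of 11 ratios computed (3 between beta chains and 8 between the partners of a heterodimer), 6 had groups that did not overlap. Among single tested genes 22% did not overlap, and no such share was computed for ratios of other genes. The 6 ratios are not separate results, since each holds *Itgb3* or *Itgb2*. With 3 mice against 3 the smallest exact permutation p is 0.1, and after adjustment over the 11 ratios no value was below 0.183, so none could pass a threshold of 0.05. The ratio of *Itgb3* to *Itgb1* was -4.73, -4.43 and -5.04 on the log2(FPKM + 1) scale with vehicle and -4.10, -3.90 and -4.24 with JAK inhibitor. That of *Itgb3* to *Itgb2* was -6.70, -6.53 and -7.00 with vehicle and -5.97, -5.66 and -6.09 with JAK inhibitor. In both ratios every JAK inhibitor-treated mouse lay higher, with mean differences of 0.65 and 0.84, so *Itgb3* was higher relative to both *Itgb1* and *Itgb2*. The ratio of *Itgb1* to *Itgb2* differed by 0.19, from -2.01 ± 0.08 (SD, n = 3) to -1.83 ± 0.06 (SD, n = 3), also without overlap.

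Among the partners of heterodimers, *Itgav* relative to *Itgb3* was 0.17, 0.31 and 1.36 with vehicle and -0.10, 0.03 and 0.08 with JAK inhibitor. As a plain ratio of FPKM, *Itgav* was at 1.16, 1.31 and 3.46 times the level of *Itgb3* with vehicle and at 0.924, 1.03 and 1.07 times with JAK inhibitor. The chains of the vitronectin receptor were thus near parity with JAK inhibitor, with beta3 as the scarcer chain in every vehicle-treated mouse. This difference of -0.60 was -0.23 without vehicle-treated mouse 3. *Itgal* relative to *Itgb2* was higher by 0.70 and *Itgam* relative to *Itgb2* was lower by 0.40 (from -1.98 to -2.38), both without overlap, the latter -0.17 without vehicle-treated mouse 3. The groups overlapped for *Itgav* to *Itgb5* (difference 0.32), *Itgav* to *Itgb1* (0.05, or 0.27 without vehicle-treated mouse 3), *Itga4* to *Itgb1* (0.34), *Itga4* to *Itgb7* (0.20, or 0.38 without that mouse) and *Itgax* to *Itgb2* (-0.51).

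**Figure D3:**
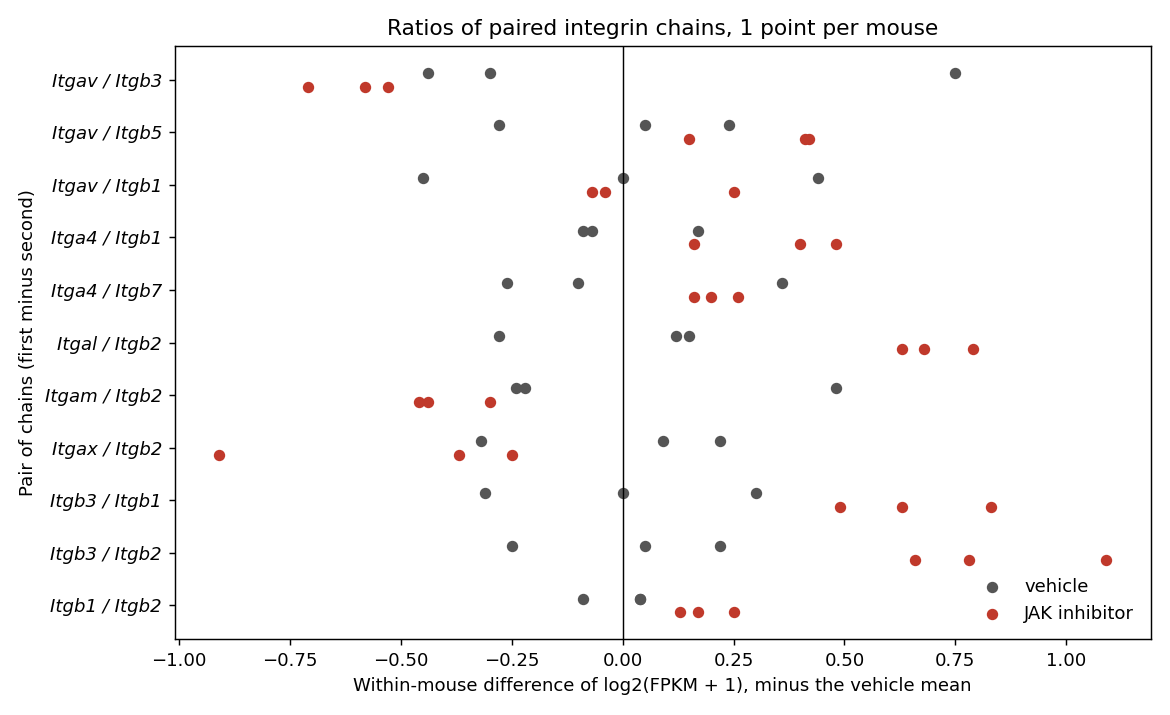
Within-mouse difference of log2(FPKM + 1) between 2 integrin chains (first minus second), with the vehicle mean subtracted and 1 point per mouse (grey, vehicle; red, JAK inhibitor). The JAK inhibitor-treated mice lie to the right of all vehicle-treated mice for *Itgb3* over *Itgb1*, *Itgb3* over *Itgb2*, *Itgb1* over *Itgb2* and *Itgal* over *Itgb2*, and to the left for *Itgav* over *Itgb3* and *Itgam* over *Itgb2*.

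*Itgb2* (chromosome 10, 77530252 to 77565708, plus strand) was at 432, 391 and 348 FPKM with vehicle and at 400, 415 and 406 with JAK inhibitor. The log2 fold change was 0.06 with a 95% interval from -0.15 to 0.28, and it was -0.02 without vehicle-treated mouse 3. Against this level beta chain, its alpha partners differed in opposite directions. *Itgal* (chromosome 7, 127296260 to 127335138, plus strand) encodes alphaL, which forms LFA-1, the receptor for ICAM proteins on lymphocytes and monocytes. It was at 59.98, 55.3 and 36.2 FPKM with vehicle and at 79.5, 91.8 and 83.3 with JAK inhibitor. The groups did not overlap, the log2 fold change was 0.77 (95% interval from 0.37 to 1.16) and the adjusted p was 0.113 in limma. Without vehicle-treated mouse 3 the log2 fold change was 0.55 and the adjusted p in limma was 0.0449, the 1 case in which leaving out a mouse brought a chain past the adjusted threshold.

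*Itgam* (chromosome 7, 128062640 to 128118491, plus strand) encodes alphaM, or CD11b, which forms the complement receptor Mac-1 of neutrophils and monocytes. It was at 91.9, 84.1 and 122 FPKM with vehicle and at 74.0, 84.3 and 74.0 with JAK inhibitor. The groups overlapped narrowly, at 84.1 and 84.3 FPKM, and the log2 fold change of -0.34 (95% interval from -0.66 to -0.02, adjusted p = 0.282 in limma) was -0.18 without vehicle-treated mouse 3, with an unadjusted p in limma of 0.0977. *Itgax* (chromosome 7, 128129547 to 128150657, plus strand), whose product CD11c is used as a marker of dendritic cells, was at 5.74, 5.66 and 3.09 FPKM with vehicle and at 3.90, 3.70 and 2.16 with JAK inhibitor. Its groups overlapped, with a log2 fold change of -0.45 (95% interval from -1.03 to 0.14), which was -0.68 without vehicle-treated mouse 3, with an unadjusted p in limma of 0.0151. *Itgad*, which lies in the same cluster of chromosome 7 and encodes a further partner of beta2, stayed below 1 FPKM in every mouse. *Itgam* overlaps the protein-coding gene *Gm49368* on the same strand, which had no deposited value, and reads of the overlap may not be told apart.

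As shares of the summed FPKM of *Itgal*, *Itgam* and *Itgax*, a measure chosen after the values were seen and so given without a test, *Itgal* made up 38.1%, 38.1% and 22.4% with vehicle and 50.5%, 51.1% and 52.2% with JAK inhibitor. *Itgam* made up 58.3%, 58.0% and 75.6% with vehicle and 47.0%, 46.9% and 46.4% with JAK inhibitor. The majority alpha transcript of the beta2 family was thus *Itgam* in every vehicle-treated mouse and *Itgal* in every JAK inhibitor-treated mouse. The sum of the alpha chains itself overlapped between the groups, with a mean of 155 ± 8.50 FPKM (SD, n = 3) in vehicle-treated mice and of 166 ± 12.5 (SD, n = 3) in those on JAK inhibitor.

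**Figure D4:**
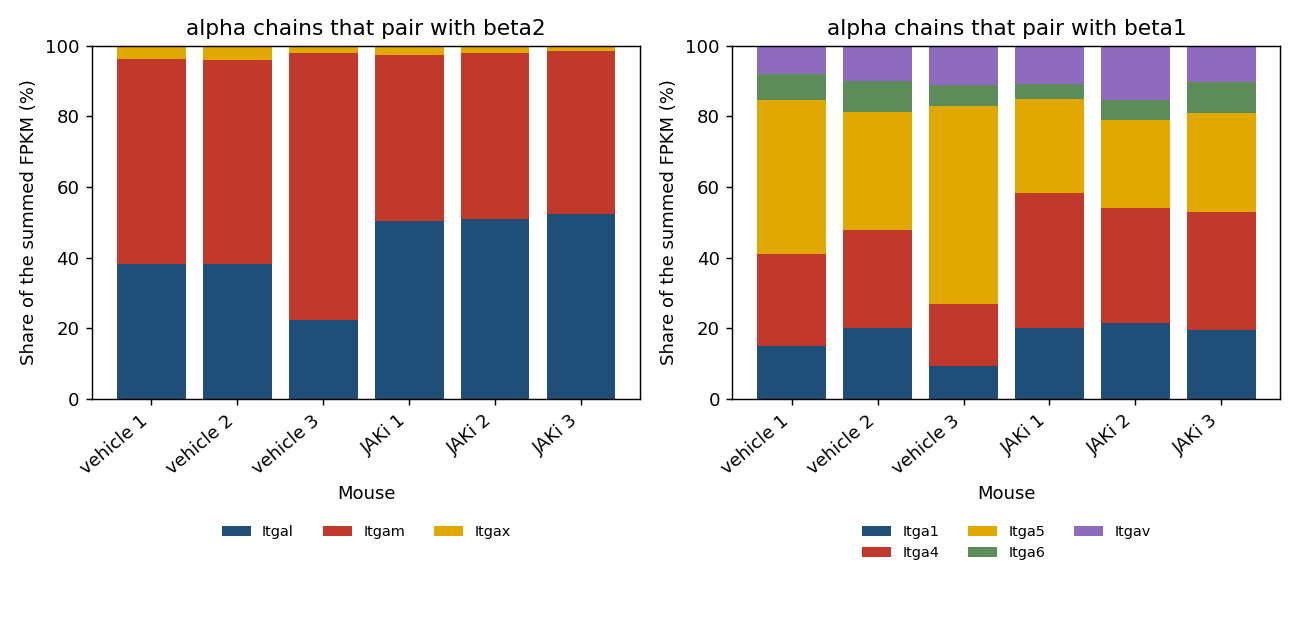
Share of each alpha chain in the summed FPKM of the alpha chains that pair with beta2 (left) and with beta1 (right), 1 bar per mouse. On the left *Itgal* takes 22.4% to 38.1% in vehicle-treated mice and 50.5% to 52.2% in JAK inhibitor-treated mice; on the right *Itga5* takes 33.6% to 56.2% and 24.9% to 28.3%.

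*Itgb1* (chromosome 8, 128685654 to 128733200, plus strand), the beta chain shared by most receptors for fibronectin, laminin and collagen, was at 110, 90.2 and 88.3 FPKM with vehicle and at 108, 121 and 112 with JAK inhibitor. The value of vehicle-treated mouse 1 lay within the JAK inhibitor range. The log2 fold change was 0.25 (95% interval from 0.01 to 0.49, adjusted p = 0.299 in limma), and its unadjusted p stayed under 0.05 in 6 of 14 alternative analyses. Without vehicle-treated mouse 3 the log2 fold change was 0.19 and the unadjusted p in limma was 0.102. *Itga4* (chromosome 2, 79255426 to 79333123, plus strand) encodes alpha4, used by monocytes and progenitors to hold on to VCAM-1 in the marrow. It was at 12.0, 11.7 and 9.35 FPKM with vehicle and at 17.7, 15.9 and 17.4 with JAK inhibitor, with no overlap. Its log2 fold change was 0.59 (95% interval from 0.29 to 0.89, adjusted p = 0.109 in limma), and it was 0.49 without vehicle-treated mouse 3. *Itga4* overlaps *Cerkl* on the opposite strand, which averaged 1.51 FPKM, and reads of the overlap may not be told apart.

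*Itgb7* (chromosome 15, 102215995 to 102231944, minus strand), the beta chain known from lymphocytes that home to the gut and from mast cell progenitors, was at 163, 178 and 94.2 FPKM with vehicle and at 184, 173 and 194 with JAK inhibitor. Its groups overlapped, and the log2 fold change of 0.39 (95% interval from -0.08 to 0.86) was 0.11 without vehicle-treated mouse 3. *Itgb7* was at 9.94 to 15.1 times the summed FPKM of its alpha partners *Itga4* and *Itgae* in the 6 mice, whereas *Itgb1* was at 1.65 to 2.50 times the sum of *Itga1*, *Itga4*, *Itga5*, *Itga6* and *Itgav*, and *Itgb2* at 2.16 to 2.74 times the sum of its partners. *Itgb3* went the other way, at 0.107 to 0.263 times the sum of *Itgav* and *Itga2b* with vehicle and 0.396 to 0.499 times with JAK inhibitor. At the transcript level the beta7, beta1 and beta2 chains thus exceeded the sum of these alpha partners, and beta3 did not.

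The DNA before the transcription start is shown for 3 of the chains, *Itga4* and its partner *Itgb1*, both higher with JAK inhibitor at the unadjusted threshold, and *Itgam*, which was lower. RefSeq promoter sequences on GRCm38.p6 were at hand for 7 of the 10 chains. Each run is the 250 bases before the start, 5′ to 3′ on the plus strand, in lower case, with 2 motifs in capitals on either strand: GAGGAA (or TTCCTC), the core bound by PU.1, the factor of the myeloid lineage, and GGGCGG (or CCGCCC), the GC box bound by Sp1.
*Itga4*, chr2:79255176-79255425: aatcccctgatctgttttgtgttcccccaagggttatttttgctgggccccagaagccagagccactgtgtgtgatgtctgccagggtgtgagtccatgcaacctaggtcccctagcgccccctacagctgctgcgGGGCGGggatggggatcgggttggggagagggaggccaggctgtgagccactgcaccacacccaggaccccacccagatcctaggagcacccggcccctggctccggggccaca
*Itgb1*, chr8:128685404-128685653: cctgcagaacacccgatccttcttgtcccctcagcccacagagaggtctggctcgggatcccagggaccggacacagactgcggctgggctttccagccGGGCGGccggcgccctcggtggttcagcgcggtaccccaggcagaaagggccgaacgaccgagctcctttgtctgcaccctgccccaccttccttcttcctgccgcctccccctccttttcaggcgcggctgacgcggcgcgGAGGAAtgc
*Itgam*, chr7:128062390-128062639: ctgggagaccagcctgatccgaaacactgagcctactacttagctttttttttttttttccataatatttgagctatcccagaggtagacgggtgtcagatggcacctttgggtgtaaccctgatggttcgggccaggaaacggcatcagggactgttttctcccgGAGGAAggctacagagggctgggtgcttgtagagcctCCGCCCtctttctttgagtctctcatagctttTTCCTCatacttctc

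The PU.1 core stood in 3 of the 7 windows (*Itgam*, *Itgav* and *Itgb1*), against 23.3% of 32851 promoter windows of the same length, and the GC box in 4 of 7 (*Itga4*, *Itgam*, *Itgb1* and *Itgb5*), against 32.7%. *Itgam* and *Itgav* each held the PU.1 core in 2 places. The motif TTCNNNGAA, to which STAT factors bind downstream of JAK kinases, reads the same on both strands; it was found in 0 of the 7 windows, against 7.02% of all windows. A window without these letters says nothing about binding elsewhere.

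Of 16 other integrin chains that were listed, 12 stayed below 1 FPKM in every mouse, among them the alpha3, alpha7 and beta4 chains of epithelium and muscle and the alphaE partner of beta7, and *Itga11* was listed at 0 throughout. The other 4 passed the filter, and 2 of them were past an unadjusted p of 0.05 in limma, 1 in each direction. Without vehicle-treated mouse 3, 0 of 4 were past it. Among all tested genes the shares were 16% with all mice and 13.5% without that mouse. *Itga1*, the alpha chain of a collagen receptor, was at 6.97, 8.49 and 4.94 FPKM with vehicle and at 9.30, 10.4 and 10.1 with JAK inhibitor, so its log2 fold change was 0.51 (0.33 without vehicle-treated mouse 3). *Itga5*, the alpha chain of the fibronectin receptor, was at 20.2, 14.2 and 30.0 FPKM with vehicle and at 12.4, 12.1 and 14.7 with JAK inhibitor. Its groups overlapped, at a log2 fold change of -0.62 (-0.36 without that mouse). Among the alpha partners of beta1, *Itga5* thus had the largest share in every vehicle-treated mouse, at 43.7%, 33.6% and 56.2%, and *Itga4* in every JAK inhibitor-treated mouse, at 38.2%, 32.8% and 33.5%. *Itga6* was at 2.06 to 4.51 FPKM and *Itga2b*, the platelet partner of beta3, at 4.68 to 15.0, with log2 fold changes of -0.13 and -0.51 and intervals that held 0. Outside this list, *Itgb2l*, a gene similar to *Itgb2*, was at 3.14, 3.28 and 2.74 FPKM with vehicle and at 5.93, 3.995 and 3.47 with JAK inhibitor. Its groups did not overlap, and limma gave a log2 fold change of 0.41 with an adjusted p of 0.365. It was named after its values were seen, and reads that it may share with *Itgb2* make both values uncertain.

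Genes that the integrins bind to or work through were counted from lists, to be read against the 6.57% higher and 9.4% lower among all tested genes. Without vehicle-treated mouse 3 that share was 13.5% in either direction. Of 24 ligand genes, 12 were tested and 5 of them were lower and 0 higher at an unadjusted p under 0.05 in limma, with a median log2 fold change of -0.29. Without vehicle-treated mouse 3 the counts were 5 lower and 1 higher. The ligand that gained a call was *Vcam1*, at 0.46 with all mice and 0.55 without that mouse (unadjusted p = 0.0484 in limma). *Icam2* was also higher, at 0.55 (0.19 without that mouse), but not past this threshold. *Icam1*, the ligand of LFA-1 and Mac-1, was at 36.7, 29.9 and 64.0 FPKM with vehicle and at 18.2, 24.8 and 19.7 with JAK inhibitor, for which limma gave a log2 fold change of -0.96 and an adjusted p of 0.133. *Fn1*, fibronectin, which alpha4 beta1 and alpha5 beta1 bind, was at 123, 137 and 214 FPKM with vehicle and at 78.8, 116 and 101 with JAK inhibitor, so its log2 fold change was -0.65 (-0.41 without vehicle-treated mouse 3). *Spp1*, osteopontin, a ligand of alphaV beta3 made by osteoclasts and macrophages, was at 35.2, 37.4 and 247 FPKM with vehicle and at 27.0, 17.2 and 29.8 with JAK inhibitor, with a log2 fold change of -1.48 that was -0.57 without vehicle-treated mouse 3. *F11r* (JAM-A, which LFA-1 binds) and *Thbs1* (thrombospondin) completed the 5, with log2 fold changes of -1.43 and -1.19. In all 5, which were picked by p, every JAK inhibitor-treated mouse lay below every vehicle-treated mouse. Among all tested genes 12.1% lay so. The ligands *Vtn*, *Tnc*, *Fga*, *Fgb* and *Fgg* were listed at 0 in every mouse.

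Of 37 genes of integrin activation and adhesion signaling, 32 were tested, and 3 were higher and 2 lower, with a median log2 fold change of 0.01. This count of 5 of 32 is near the 16% called among all tested genes, so the list as a whole did not stand out by it. Its 5 genes are given only for their roles. Groups did not overlap for 11 of the 32 (6 higher and 5 lower), against 22% of tested genes. *Fermt3* encodes kindlin-3, which binds the tails of beta chains and switches them on in blood cells. It was at 220, 205 and 231 FPKM with vehicle and at 166, 176 and 173 with JAK inhibitor, for which limma gave a log2 fold change of -0.35 and an adjusted p of 0.118. *Parvg*, an adaptor of the kinase ILK, had a log2 fold change of -0.24. On the higher side, *Vav3*, an exchange factor that osteoclasts use downstream of alphaV beta3, was at 14.1, 14.1 and 10.1 FPKM with vehicle and at 16.9, 19.8 and 19.2 with JAK inhibitor, so its log2 fold change was 0.52. *Rasgrp2*, which activates Rap1 ahead of integrins, was at 0.50 (0.30 without vehicle-treated mouse 3), and *Ptk2b*, the adhesion kinase PYK2 of osteoclasts, at 0.26. None of the 5, which were picked by p, had overlapping groups. The talin, vinculin and ILK genes *Tln1*, *Vcl* and *Ilk* had log2 fold changes of 0.12, 0.03 and 0.01 (0.09, -0.04 and -0.07 without that mouse). These 3 were picked out after their values were seen.

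**Figure D5:**
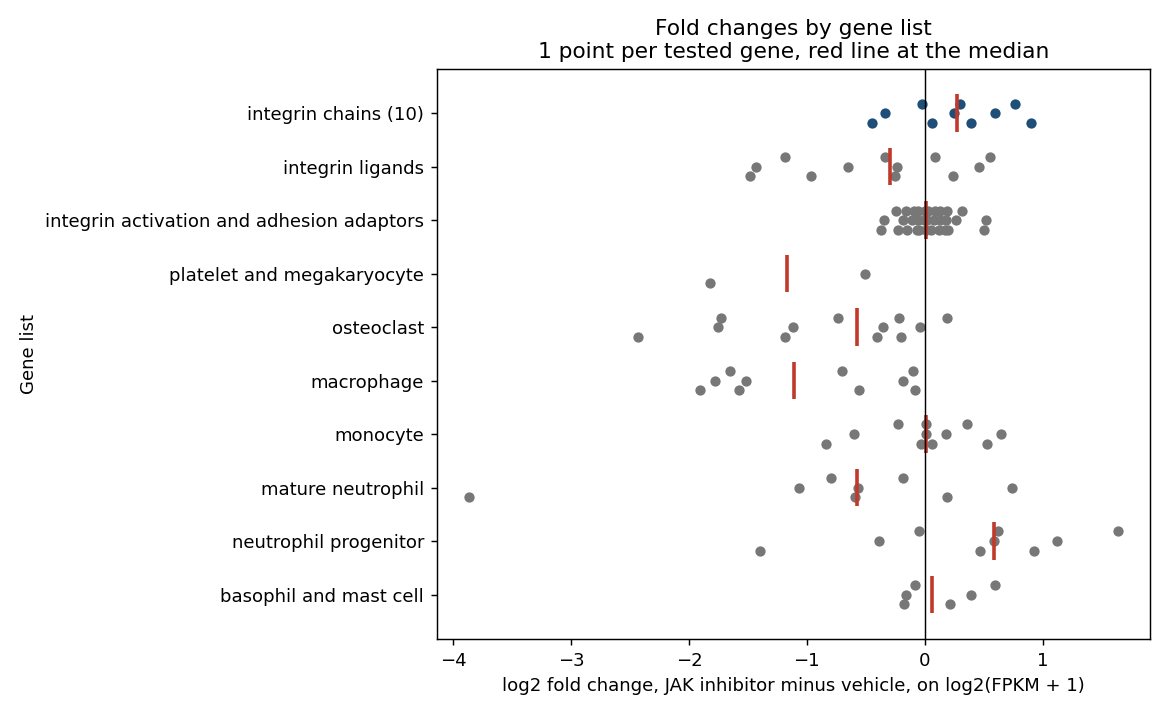
Log2 fold changes (JAK inhibitor minus vehicle) of each tested gene in 10 of the lists, with a red line at the median of a list. The 10 integrin chains (blue) have a median of 0.27, their ligands -0.29 and the adhesion adaptors 0.01, and the medians of the osteoclast and macrophage lists are -0.57 and -1.11.

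Markers of cells that could carry these chains also differed, and their part in the integrin values was not tested. Counts of called genes in these lists, here and in the next paragraph, are at an unadjusted p under 0.05 in limma. They are to be read against 6.57% higher and 9.4% lower among all tested genes. Without vehicle-treated mouse 3 the share was 13.5% in either direction. Of 9 genes of granulocyte progenitors, 4 were higher and 2 lower. Their summed level was 16500 to 20000 FPKM with vehicle and 17000 to 18600 with JAK inhibitor. This sum holds opposite differences, as *Chil3* alone was at 8838 to 10575 FPKM with vehicle and at 2945 to 4440 with JAK inhibitor. Among those higher, *Camp* had a log2 fold change of 1.64. *Elane* and *Mpo*, enzymes of the first granules, had 1.12 and 0.93 (0.70 and 0.53 without vehicle-treated mouse 3). *Ms4a3* was lower, with a log2 fold change of -0.39. *Chil3* had a log2 fold change of -1.39 and was the only gene of the list past the adjusted threshold in limma (adjusted p = 0.0189). Of 8 mature neutrophil genes, 3 were lower and 1 higher, with sums of 10000 to 21000 and 6570 to 13400 FPKM. Of 10 tested macrophage genes, 5 were lower and 0 higher (6 and 0 without vehicle-treated mouse 3, where *Mrc1* gained a call). The sums of the list were 731 to 896 and 515 to 649 FPKM, of which *Cd68* alone was at 397 to 458 and 386 to 427. *C1qb*, a complement component of tissue macrophages, had a log2 fold change of -1.78. Of 12 tested osteoclast genes, 6 were lower and 0 higher, with sums of 344 to 797 and 276 to 286 FPKM. Without vehicle-treated mouse 3 the counts were 6 and 1, as *Car2* gained a call (log2 fold change 0.28). *Itgb3* differed in the direction opposite to *Ctsk* (-2.43) and *Dcstamp* (-1.19). *Calcr*, the calcitonin receptor of mature osteoclasts, was listed at 0 in every mouse.

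Of 11 monocyte genes, 2 were higher and 2 lower, with sums of 29300 to 38600 FPKM with vehicle and 29900 to 39400 with JAK inhibitor. These sums were made mostly of *Lyz2*, at 24585 to 32213 FPKM with vehicle and 23900 to 32890 with JAK inhibitor. The transcription factors *Irf8* and *Klf4* had log2 fold changes of 0.64 (0.39 without vehicle-treated mouse 3) and 0.53, and *Cd14*, the co-receptor for LPS, had -0.83. Of 12 platelet genes, which would accompany beta3 in platelets, 10 stayed below 1 FPKM in every mouse. The 2 others were *Itga2b* and *Pf4*. *Pf4* had a log2 fold change of -1.82, with groups that overlapped, and the part of platelets in the *Itgb3* values was not tested. Of 6 basophil and mast cell genes, which would accompany beta7, *Mcpt8* alone was past an unadjusted p of 0.05 in limma (log2 fold change 0.60, or 0.36 and no longer past it without vehicle-treated mouse 3), with sums of 1610 to 3490 and 2450 to 3790 FPKM. Of 8 tested dendritic cell genes, 1 was higher and 0 lower (0 and 1 without that mouse), with sums of 84.7 to 138 and 112 to 126 FPKM. Lymphocyte and NK genes gave 1 higher and 1 lower of 6 tested (1 and 0 of 5 without that mouse), and their sums of 204 to 374 and 490 to 573 FPKM were made mostly of *Nkg7*, with *Ms4a1* at 0 in every mouse. Erythroid genes gave 2 higher of 6 tested, with sums of 3.21 to 5.31 and 6.62 to 65.5 FPKM.

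The genes whose pattern over the 6 mice was most like that of *Itgb3* were *Kdm2b*, *Gm2a*, *Elovl5*, *Ccng2* and *G6pc3*, with Pearson r between 0.986 and 0.995 on log2(FPKM + 1) among 7740 genes with a mean of at least 5 FPKM. For *Itgb1* they were *Phactr2*, *Paics*, *Arhgef3*, *Mcee* and *Rap1gap2*, with r between 0.973 and 0.985. For *Itgb2* they were *Nsmce4a*, *Aspscr1*, *Atg4d*, *Gm5424* and *Aifm1*, with r between 0.968 and 0.987. These are descriptions over 6 points that share the same libraries and hold the difference between the groups. Among the chains themselves, *Itgal* was closest to *Itgb3* with r = 0.98, followed by *Itga4* with 0.91 and *Itgb1* with 0.86, and *Itgam* ran against it with r = -0.81, whereas its partner *Itgav* had r = 0.38.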

How the data were processed

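Values from RNA-Seq of sorted EGFP+ cells of 6 mice were used, deposited by the authors as FPKM in a separate table for each mouse. The submitters' processing notes name TopHat2 2.0.13, Bowtie2 2.2.3, SAMtools 0.1.19, Cufflinks 2.2.1 and mm10; the annotation is not given in the sources used here. The methods name a stranded TruSeq kit and the labels a SMART-Seq HT kit with Nextera, which does not mark strand, so reads of overlapping genes on opposite strands may not be separated. Groups came from the sample titles. From the FPKM, log2(FPKM + 1) of the 11301 genes with at least 1 FPKM in at least 1 mouse was compared with limma 3.58.1 in R 4.3.3 (moderated by empirical Bayes with a mean trend, p adjusted by Benjamini-Hochberg). A pseudocount of 1 understates changes of low genes. Single values and ratios had exact 2-sided permutation tests. The rest used Python 3.11.15 with SciPy 1.17.1, NumPy 2.4.6, pandas 2.3.3 and matplotlib 3.10.9. The fit was tested on simulated data.

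Genes named are the 10 chains, those of 16 other listed integrin chains with a mean of at least 1 FPKM, up to 5 genes per list with an unadjusted p under 0.05, markers at 0, and 5 genes most like each of 3 beta chains; other names were picked with the values in view. The chains and lists were chosen with earlier results of these data known. Same-numbered mice did not deviate together (correlations of 0.02, 0.05 and -0.00016), so no pairing was used. Alternatives were a pseudocount of 0.1, no filter, a filter in 3 mice, quantile and median-ratio scaling, no trend, weights for each library, a replicate block, and each mouse left out.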

Additional observations from a re-analysis of the deposited data

How the results depend on the processing

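The number of integrin chains past an unadjusted p of 0.05 in limma, 5 as reported, was 3 without the trend and between 3 and 5 when 1 mouse was left out. The number on the lower side, 1 as reported, was 0 with no filter, quantile normalization or no trend, 2 with weights for each library or with the replicate block, and 0 to 1 with a mouse left out. The number past the adjusted threshold, 0 as reported, was 0 to 1 with a mouse left out. Over all genes, the 15 past the adjusted threshold became 2 with no filter, 34 with at least 1 FPKM in 3 mice, 2 without the trend, 63 with weights, 67 with the replicate block, and 3 to 95 with a mouse left out (94 without vehicle-treated mouse 3, 95 without vehicle-treated mouse 2, 3 without JAK inhibitor-treated mouse 3). The cause was not tested. *Itgb3*, *Itgal* and *Itga4* kept their direction and an unadjusted p under 0.05 in all 14 alternatives, with log2 fold changes from 0.69 to 1.12, 0.55 to 0.90 and 0.49 to 0.65. *Itgam* did so in 8 and *Itgb1* in 6. The sign turned for *Itgb5* with quantile normalization (0.01). With 1 mouse left out it turned for *Itgb5* (range -0.13 to 0.08, positive without JAK inhibitor-treated mouse 3 or, at 0.02, vehicle-treated mouse 3), for *Itgb2* (-0.02 to 0.14, negative without vehicle-treated mouse 3) and for *Itga6* (-0.36 to 0.06, positive without JAK inhibitor-treated mouse 1). With the replicate block *Itgb1* lost its call (unadjusted p = 0.0591 in limma) and *Itgax* and *Itga2b* gained one (0.0325 and 0.0303). The same numbers name different mice, so the block is not a pairing by design. The ratios were recomputed with the other pseudocount, both scalings and each mouse left out, and the 6 without overlap kept their direction, whereas *Itgav* to *Itgb1* (0.05) ranged from -0.17 to 0.27 with a mouse left out. Read depth is unknown, and 3 mice against 3 limit every exact test to p = 0.1.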
